A study of Mus musculus with 8 samples.

Results

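Transcripts of 5 inhibitory receptors of T cells (Pdcd1, Lag3, Havcr2, Tigit and Cd160), of the transcription factor Tox and of the 2 ligands of PD-1 (Cd274 and Pdcd1lg2) were followed through every cell type of mouse lung grafts. The 8 genes were named as a list out of 17921 genes in the table, with earlier results of these data known. Lung grafts of 8 mice were dissociated and profiled by scRNA-Seq (10x Genomics, 3′ tags with unique molecular identifiers, UMIs), with 10000 cells loaded per graft. The B6→B6 group (n = 5) was the syngeneic control, a left lung of a C57BL/6 (B6) mouse in a B6 recipient. The HLA→B6 group (n = 3) was the chronic rejection model, in which the left lung came from a donor on the same C57BL/6 background that carried a transgene for human HLA-A2.1, so that graft and recipient differed by that transgene. Mice were male, none received immunosuppression, and grafts were taken 1 month after transplantation. Their ages were not given in the sources used here.

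PD-1 (encoded by Pdcd1), LAG-3 (Lag3), TIM-3 (Havcr2), TIGIT (Tigit) and CD160 (Cd160) are surface receptors that dampen the response of T cells and other lymphocytes. T cells gain PD-1 and LAG-3 after activation through the T cell receptor and keep them while antigen persists, and TOX is a nuclear factor that sustains this state. PD-1 is engaged by PD-L1 (Cd274), found on many blood-derived and tissue cells and inducible by interferon-γ, and by PD-L2 (Pdcd1lg2), which is mostly limited to dendritic cells, macrophages and some B cells.

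The libraries held 868 to 6544 cells, 1669076 to 12445769 UMIs and a median of 1356 to 1948 UMIs per cell. The authors labelled 179, 341, 426, 1470 and 147 cells of the 5 B6→B6 mice (replicates 1 to 5) as T cells, against 1147, 1130 and 231 cells of the 3 HLA→B6 mice (replicates 1 to 3). They were also split by transcripts: 675 had at least 1 UMI of Cd4 and none of Cd8a (Cd4 T cells), 1656 had Cd8a and no Cd4 (Cd8a T cells), 205 had both and 2535 had neither. In every labelled type, marker genes of that type were highest, except that cells labelled leukocyte led in neutrophil markers and cells labelled myeloid cell led in dendritic cell markers. Beside each result, a level is the number of UMIs of a gene in a class per 1000000 UMIs of that class in the same mouse (CPM), and a fold change is for HLA→B6 against B6→B6, fitted by edgeR on summed UMIs per mouse. Since nothing in the labels tells more of how the mice were housed or operated on, p values measure the spread between these 8 mice.

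B6→B6 replicate 4 stood apart. Of its T cells, 954 formed T cell cluster 7 of the authors' clustering, which held no cell of any other mouse and had a median of 831.5 UMIs. Rag1 and Dntt, genes of T cell precursors named here after their values were seen, reached 738 and 955 CPM in that cluster, while Rag1 had 0 UMIs in the other T cells of all 8 mice. Cluster 7 had only 4 UMIs of Pdcd1 and 14 of Lag3 but Tox at 200 CPM, above the other T cells of the B6→B6 mice, so the main T cell levels and fits are also given without it. In addition, 4 libraries (replicates 1, 2 and 3 of the B6→B6 group with replicate 2 of the HLA→B6 group) shared far more cell barcodes than unrelated libraries would, for example 160 between B6→B6 replicate 2 and HLA→B6 replicate 2, where 6.03 were expected. They are called linked libraries, and differences of Pdcd1, Lag3, Tox and Cd160 in T cell classes are also given within the linked and within the other libraries. Each difference within the linked libraries rests on 1 HLA→B6 mouse, replicate 2.

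Genomic positions of the genes were taken from GENCODE vM21 (GRCm38), all on protein-coding genes: Pdcd1 at chr1:94038305-94052553 (minus strand), Lag3 at chr6:124904361-124911705 (minus), Havcr2 at chr11:46454935-46481255 (plus), Tigit at chr16:43648867-43664146 (minus), Cd160 at chr3:96798763-96829351 (minus), Tox at chr4:6686353-6991557 (minus), Cd274 at chr19:29367455-29388095 (plus) and Pdcd1lg2 at chr19:29410919-29471161 (plus). The 2 ligand genes thus neighbour each other on chromosome 19. Promoters (250 bases before to 50 after the start, RefSeq, GRCm38.p6) matched 6 of the 8 genes, all but Lag3 and Tox. The promoters of Pdcd1, called in both the Cd4 and the Cd8a class, and of both ligand genes are shown with matches to searched motifs in capitals, 5′ to 3′ on the strand of the gene.
Pdcd1, chr1:94052504-94052803, minus strand: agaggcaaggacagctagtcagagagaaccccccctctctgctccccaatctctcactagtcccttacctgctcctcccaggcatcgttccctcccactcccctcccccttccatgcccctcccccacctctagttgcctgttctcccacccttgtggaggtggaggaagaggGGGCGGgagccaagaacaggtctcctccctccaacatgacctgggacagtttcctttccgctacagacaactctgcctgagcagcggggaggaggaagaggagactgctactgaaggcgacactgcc
Cd274, chr19:29367188-29367487, plus strand: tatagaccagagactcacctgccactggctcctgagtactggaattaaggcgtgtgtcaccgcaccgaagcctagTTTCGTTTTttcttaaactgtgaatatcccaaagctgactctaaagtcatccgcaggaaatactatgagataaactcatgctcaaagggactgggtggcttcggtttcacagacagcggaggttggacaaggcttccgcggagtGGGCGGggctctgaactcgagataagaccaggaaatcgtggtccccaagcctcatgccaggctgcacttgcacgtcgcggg
Pdcd1lg2, chr19:29410669-29410968, plus strand: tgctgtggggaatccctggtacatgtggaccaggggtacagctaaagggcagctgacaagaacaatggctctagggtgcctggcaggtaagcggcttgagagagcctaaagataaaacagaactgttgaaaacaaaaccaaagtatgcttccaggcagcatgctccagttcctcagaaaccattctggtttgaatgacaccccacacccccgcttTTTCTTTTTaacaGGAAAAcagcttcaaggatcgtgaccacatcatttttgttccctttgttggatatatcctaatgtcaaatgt
Capitals mark a GC box (GGGCGG) in Pdcd1, an interferon regulatory factor repeat (TTTCNNTTT) and then a GC box in Cd274, and the same repeat and then an NFAT motif (GGAAAA) in Pdcd1lg2. Both strands were searched in 32851 promoters of this length, of which 35.7% held the GC box, 10.6% the repeat and 23.4% the NFAT motif. Among the other members, the NFAT motif was also found in Tigit, the GC box in Cd160, an AP-1 motif (TGANTCA, 7.81% of promoters) in Havcr2 and a GAS motif (TTCNNNGAA, 8.30%) in Cd160. A longer interferon regulatory factor repeat (3.44%) and an NF-kB motif (1.63%) were in none of the 6. These matches describe letters in the window only.

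Pdcd1, Lag3 and Tox were the members that rose in HLA→B6 grafts in the fits of Cd4, Cd8a or all T cells. T cells with Foxp3 or Trdc transcripts, described below, were not fitted. Without the T cell cluster set apart above, Tox was found in 25.0% (B6→B6 grafts) and 21.2% (HLA→B6 grafts) of T cells with Foxp3. In T cells with Trdc the shares were 21.9% and 11.5%. By these shares Tox did not rise in either subset, and the differences were not tested. Across Cd4 T cells of HLA→B6 grafts, 3 of the 4 members that passed the filter on low counts rose, where 0.236% of the 5505 genes tested were called in either direction (adjusted p under 0.05). Cd8a T cells had 2 of 5 rising (0.81% of 6912 genes called), and in all T cells together 2 of 8 rose (0.0411% of 9730 genes called). No member fell in any of these 3 fits. In bulk sums over a class, more cells with a transcript and more transcripts per cell cannot be told apart, so shares of cells are given as well.

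Pdcd1, 1835 UMIs in all, was low in T cells of every B6→B6 mouse and higher in T cells of every HLA→B6 mouse. In Cd4 T cells its level was 19.4, 25.5, 45.1, 4.90 and 20.4 CPM in the B6→B6 mice, replicates 1 to 5, against 673, 412 and 192 CPM in the HLA→B6 mice, replicates 1 to 3. The groups did not overlap, and the lowest HLA→B6 mouse lay well above the highest B6→B6 mouse. Means were 23.1 ± 14.5 CPM (SD, n = 5) and 426 ± 241 CPM (SD, n = 3), and the fitted log2 fold change was 4.30 ± 0.44 (SE, edgeR quasi-likelihood test, Benjamini-Hochberg adjusted p = 2.37e-06). A UMI of Pdcd1 was found in 3.12% of Cd4 T cells of B6→B6 grafts and in 38.3% (136 of 355) of those of HLA→B6 grafts, or 2.01% and 30.1% after each cell was thinned to 1000 UMIs and shallower cells were left out. Without cluster 7, described above, the B6→B6 share was 4.50% (10 of 222), or 2.32% after thinning.

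Pdcd1 in Cd8a T cells was at 28.2, 41.0, 62.6, 5.70 and 0 CPM in the B6→B6 mice and at 308, 543 and 152 CPM in the HLA→B6 mice. Again no B6→B6 mouse reached the lowest HLA→B6 mouse. The log2 fold change was 3.62 ± 0.53 (SE, edgeR, adjusted p = 0.00194), and 38% of HLA→B6 cells (327 of 861) against 2.77% of B6→B6 cells had a UMI (28.6% and 2.72% after thinning). Without cluster 7 the B6→B6 share was 5.82% (22 of 378), or 3.56% after thinning. T cells with neither Cd4 nor Cd8a transcripts, a class that gathers cells in which these genes were missed as well as cells that lack them, had 20.8, 67.0, 57.6, 20.9 and 19.3 CPM in B6→B6 grafts and 221, 149 and 64.5 CPM in HLA→B6 grafts. Here HLA→B6 replicate 3 fell within the B6→B6 range, and the log2 fold change of 1.96 ± 0.36 missed the threshold (edgeR, adjusted p = 0.0521), as did all 7 members tested in this class, where 0.0462% of genes were called. Pdcd1 passed it in that class under other settings, for example with DESeq2 (1.93, adjusted p = 0.0107), at a minimum count of 10 (1.98, edgeR, adjusted p = 0.0451) and with the linked set as a block (2.12, edgeR, adjusted p = 0.0121). It did not pass with doublets or shared-barcode cells left out, nor without B6→B6 replicate 1, 3 or 5 or HLA→B6 replicate 1 or 2.

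Without T cell cluster 7, an alternative chosen after the data were seen, Pdcd1 in B6→B6 replicate 4 moved from 4.90 to 9.70 CPM in Cd4 T cells and from 5.70 to 12.6 CPM in Cd8a T cells. Its log2 fold change was then 4.08 in Cd4 T cells (edgeR, adjusted p = 3.49e-08), 3.31 in Cd8a T cells (edgeR, adjusted p = 3.62e-06) and 1.88 in T cells with neither (edgeR, adjusted p = 0.0175). Without that cluster, 3 of 3 members tested were called in Cd4 T cells (0.383% of genes), 3 of 5 in Cd8a T cells (1.79%), 3 of 8 in all T cells (0.331%) and 2 of 7 in T cells with neither (0.174%). The means differed by 382 CPM within the linked and by 420 CPM within the other libraries in Cd4 T cells, and by 499 and 227 CPM in Cd8a T cells.

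Over all T cells Pdcd1 ranged from 11.9 to 57.5 CPM in B6→B6 grafts and from 123 to 369 CPM in HLA→B6 grafts, 8.76 times as high by the means. The log2 fold change was 3.07 ± 0.45 (SE, edgeR, adjusted p = 0.0472). This call over all T cells was lost when B6→B6 replicate 1, 2 or 5 or HLA→B6 replicate 1 or 2 was left out, with adjusted p values up to 0.225 (edgeR). Of all genes with at least 15 UMIs in the class, every HLA→B6 mouse was above every B6→B6 mouse for 3.82% in all T cells, 3.72% in Cd4 T cells and 4.24% in Cd8a T cells, and of the members for 2 of 8 (Pdcd1 and Lag3), 3 of 5 (these and Tox) and 2 of 7 (Pdcd1 and Lag3).

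**Figure D1:**
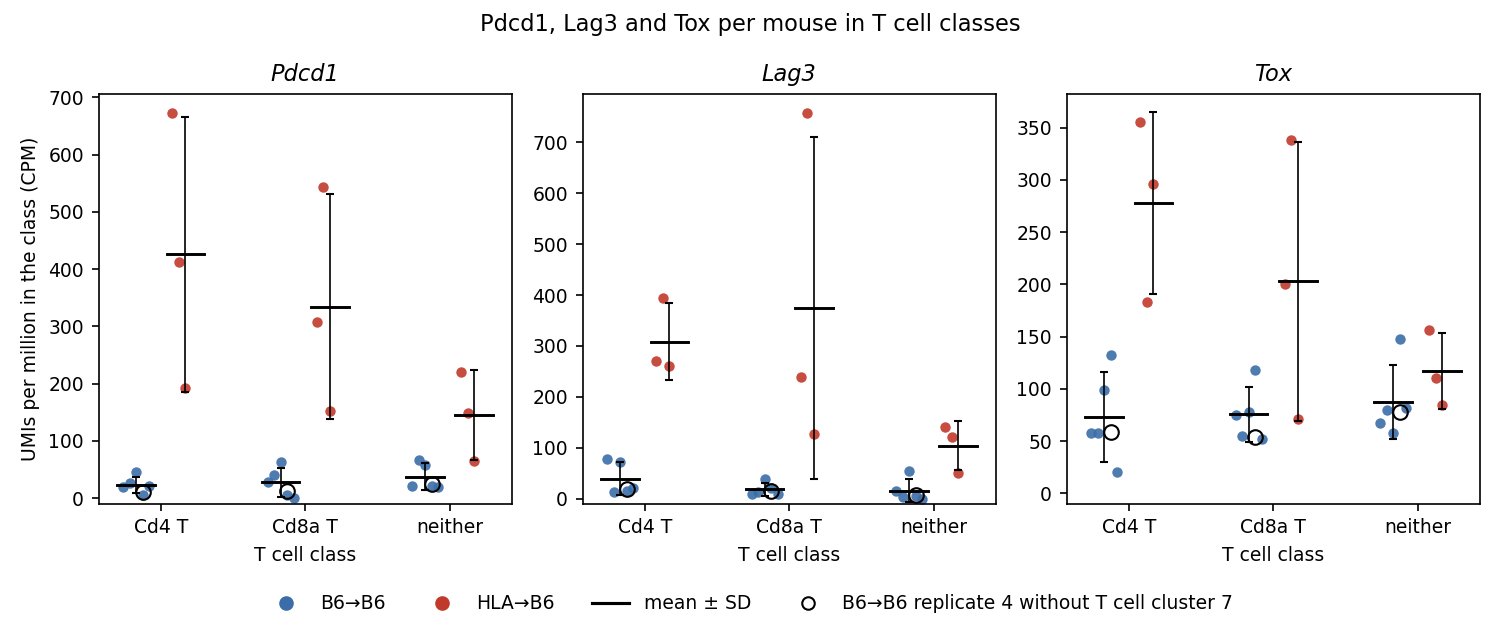
Levels of Pdcd1, Lag3 and Tox (CPM, vertical axis) per mouse in Cd4 T cells, Cd8a T cells and T cells with neither transcript, for B6→B6 (blue, n = 5) and HLA→B6 (red, n = 3), with black lines for the mean ± SD and open circles for B6→B6 replicate 4 without T cell cluster 7. All red points are above all blue points for Pdcd1 and Lag3 in Cd4 and Cd8a T cells, while for Tox in Cd8a T cells HLA→B6 replicate 3 (71.1 CPM) lies among the B6→B6 mice.

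Among smaller T cell subsets, Foxp3-positive cells (regulatory T cells, a subset named here after its values were seen) had Pdcd1 in both groups. Without cluster 7, 8 of 40 such cells of B6→B6 grafts (20%) and 16 of 52 of HLA→B6 grafts (30.8%) had a UMI, or 13.3% and 21.3% after thinning. T cells with Trdc, a transcript of the γδ T cell receptor, went the other way from T cells without it. Pdcd1 was found in 20.8% of 96 Trdc-positive cells of B6→B6 grafts and in 9.16% of 131 of HLA→B6 grafts, with 182, 96.8 and 153 CPM in the 3 B6→B6 mice and 75.0, 127 and 25.4 CPM in the 3 HLA→B6 mice that had at least 10 such cells. In T cells without Trdc the level was 26.2 ± 19.9 CPM (SD, n = 5) in B6→B6 and 287 ± 136 CPM (SD, n = 3) in HLA→B6 grafts. The ranges in Trdc-positive cells overlapped, and the difference between the subsets was not tested.

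Outside the labelled T cells, few UMIs of Pdcd1 were found. In NK cells, which share much of the T cell programme, 0 of 1011 cells, at a median of 1484 UMIs, had a UMI, which allows a share of cells with a UMI of up to 0.297%, and 8 of 2494 alveolar macrophages (0.321%, at a median of 2792 UMIs per cell) had one, against 27.3% of HLA→B6 T cells. In B cells, 0 of 1263 cells of B6→B6 grafts and 11 of 1023 of HLA→B6 grafts had a UMI. Cells labelled myeloid cell held 77 UMIs of Pdcd1, at 11.7, 3.24, 6.37, 4.74 and 0 CPM in B6→B6 and 44.9, 56.4 and 0 CPM in HLA→B6 mice. Cells labelled leukocyte held 9 UMIs, all in HLA→B6 grafts (12.7 and 28.3 CPM in the 2 mice with at least 10 such cells), and mast cells held 3, at 76.8 CPM in the 1 HLA→B6 mouse with at least 10 of them. The leukocyte and mast cell levels, and the myeloid levels of 44.9 and 56.4 CPM, lay within or above the range of B6→B6 T cells. The other myeloid levels lay below it. Of the UMIs in myeloid cells, 71 were in the 156 cells that also had Cd3e, a T cell receptor subunit chosen after the values were seen, and those cells had a median of 4628 UMIs against 2989 in myeloid cells without Cd3e. Likewise, structural cells held 29 UMIs of Pdcd1 and 54 of Lag3, of which 14 and 27 were in the 106 structural cells with Cd3e. None of the 6 members tested in myeloid cells was called, where 0.0845% of genes were (Pdcd1 log2 fold change 2.98 ± 0.66, edgeR, adjusted p = 0.102). Pdcd1 passed there with the linked set as a block (3.05, edgeR, adjusted p = 0.0383), without B6→B6 replicate 4 (3.06, edgeR, adjusted p = 0.0226) and with no filter on low counts (2.97, edgeR, adjusted p = 0.00324). It passed in none of the other alternatives, which include DESeq2, doublets left out and each other mouse left out.

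Lag3, 2043 UMIs in all, encodes a CD4-like receptor that binds MHC class II. In Cd4 T cells it was at 77.5, 12.8, 72.2, 14.7 and 20.4 CPM in B6→B6 mice and at 270, 395 and 261 CPM in HLA→B6 mice. The 3 HLA→B6 mice were close to each other and all above the B6→B6 mice. The means were 39.5 ± 32.4 CPM (SD, n = 5) and 309 ± 75.0 CPM (SD, n = 3), with a log2 fold change of 3.18 ± 0.40 (SE, edgeR, adjusted p = 6.99e-05). They differed by 341 CPM within the linked and by 248 CPM within the other libraries.

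Lag3 in Cd8a T cells was at 9.39, 13.7, 39.1, 21.4 and 8.61 CPM in B6→B6 mice and at 240, 758 and 128 CPM in HLA→B6 mice. The groups did not overlap, but the HLA→B6 mice spread widely, with replicate 2 far above the other two. The log2 fold change was 4.12 ± 0.48 (SE, edgeR, adjusted p = 0.000257), and 37.0% of HLA→B6 cells against 3.27% of B6→B6 cells had a UMI (29.1% and 1.90% after thinning). The difference of the means was 737 CPM within the linked libraries, where replicate 2 was the only HLA→B6 mouse, and 169 CPM within the other libraries.

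Over all T cells Lag3 was at 22.8, 7.85, 52.1, 12.4 and 5.37 CPM in B6→B6 and at 192, 458 and 110 CPM in HLA→B6 mice, with a log2 fold change of 3.58 ± 0.54 (SE, edgeR, adjusted p = 0.0491). This call was lost when the same 5 mice as for Pdcd1 were left out one at a time, with adjusted p values up to 0.225 (edgeR). Without cluster 7 the log2 fold change of Lag3 was 3.52 in all T cells (edgeR, adjusted p = 0.00682), 3.02 in Cd4 T cells (3.88e-06), 4.15 in Cd8a T cells (3.62e-06) and 2.51 in T cells with neither (0.0355). Foxp3-positive T cells had a UMI of Lag3 in 10.0% (B6→B6 grafts) and 26.9% (HLA→B6 grafts) of cells, and Trdc-positive T cells had 0 UMIs in 96 B6→B6 cells and 17 in 131 HLA→B6 cells.

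Lag3 was also found in cells labelled myeloid cell, in which T cell markers summed to 2082 CPM over both groups. The part of their Lag3 UMIs in cells with Cd3e is not given here. Cells labelled myeloid cell had 58.7, 159, 66.9, 7.12 and 68.4 CPM in B6→B6 and 121, 126 and 118 CPM in HLA→B6 mice, so that the 2 groups overlapped and, in B6→B6 grafts, the mean (72.0 CPM) was above that of T cells (20.1 CPM), though the ranges of these types overlapped. Of the 263 UMIs, 95 were in the 64 myeloid cells with Siglech, a marker of plasmacytoid dendritic cells chosen after the values were seen. Lag3 was found in 51.6% of these cells and in 9.12% of myeloid cells without Siglech. In alveolar macrophages Lag3 was at 3.30, 8.35, 6.10, 0 and 0 CPM in B6→B6 and at 17.1, 11.7 and 8.39 CPM in HLA→B6 mice, with 78 UMIs in all. The groups touched without overlapping, and neither Lag3 (log2 fold change 2.55 ± 0.81, edgeR, adjusted p = 0.0704) nor any of the 4 members tested passed the threshold there, in a fit that called 9.13% of genes. Lag3 passed there with the linked set as a block (2.74, edgeR, adjusted p = 0.0296), with shared-barcode cells left out (3.56, edgeR, adjusted p = 0.014), without B6→B6 replicate 2 (3.41, edgeR, adjusted p = 0.034) and with no filter on low counts (2.55, edgeR, adjusted p = 0.0279). It passed in none of the other alternatives, which include DESeq2, doublets left out and each other mouse left out.

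Havcr2, 674 UMIs in all, was mainly a transcript of macrophages, monocytes and dendritic cells in these grafts. In alveolar macrophages it was at 36.3, 39.7, 34.6, 31.0 and 12.6 CPM in B6→B6 and at 45.5, 31.9 and 28.0 CPM in HLA→B6 mice. In monocytes it was at 55.1, 43.7, 31.7, 16.3 and 29.2 CPM and at 18.9, 56.6 and 40.5 CPM. The groups overlapped in both, with log2 fold changes of 0.43 ± 0.30 in alveolar macrophages (edgeR, adjusted p = 0.412) and 0.06 ± 0.41 in monocytes (edgeR, adjusted p = 0.999). Among myeloid cells, the 74 with Xcr1, a marker of cross-presenting dendritic cells chosen after the values were seen, held 47 of the 116 UMIs, and 39.2% of them had one.

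In T cells Havcr2 had 87 UMIs, 82 of them in HLA→B6 grafts. Its level was 0, 6.54, 0, 0 and 0 CPM in B6→B6 and 6.87, 29.3 and 0 CPM in HLA→B6 mice. It was thus carried mainly by HLA→B6 replicate 2, and HLA→B6 replicate 3 had no UMI, so the groups overlapped. The log2 fold change over all T cells, 3.37 ± 1.12, missed the threshold (edgeR, adjusted p = 0.482). Of 64 UMIs in Cd8a T cells, 63 were in HLA→B6 grafts, at 11.5, 50.8 and 0 CPM, while Cd4 T cells had 4 UMIs, all in HLA→B6 replicate 2.

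Tigit was rare, with 117 UMIs, 93 of them in T cells. Over all T cells its level was 8.56, 5.24, 5.42, 0.990 and 0 CPM in B6→B6 and 10.6, 23.8 and 6.36 CPM in HLA→B6 mice. The ranges overlapped, and the log2 fold change of 1.99 ± 0.65 did not pass (edgeR, adjusted p = 0.462), with 0.507% of B6→B6 cells (0.808% without cluster 7) and 2.91% of HLA→B6 cells having a UMI. No UMI was found in 2286 B cells or in 227 Trdc-positive T cells, and NK cells held 8.

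Among the labelled cell types, Cd160 was led by NK cells, and this receptor is known as a marker of cytotoxic lymphocytes. NK cells had 140, 76.5, 87.2, 66.1 and 106 CPM in B6→B6 and 90.3, 29.3 and 18 CPM in HLA→B6 mice. HLA→B6 replicate 1 lay within the B6→B6 range and the other two below it. The means were 95.1 ± 29.0 CPM (SD, n = 5) and 45.8 ± 38.9 CPM (SD, n = 3), and the log2 fold change of −0.69 ± 0.36 was not past the threshold (edgeR, adjusted p = 1.00), where 0 of 2 members and 0.0151% of genes were called.

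In T cells Cd160 was at 28.5, 32.7, 30.4, 11.9 and 10.7 CPM in B6→B6 and 36.4, 35.7 and 25.4 CPM in HLA→B6 mice, which overlapped (log2 fold change 0.53 ± 0.35, edgeR, adjusted p = 0.889). Of the 4 members tested, Cd160 was the 1 called between Cd8a and Cd4 T cells of the same mice. In Cd8a T cells it was at 46.9, 59.3, 31.3, 8.56 and 8.61 CPM in B6→B6 and 61.5, 35.6 and 23.7 CPM in HLA→B6 mice, while Cd4 T cells had 13 UMIs, at 0, 0, 9.03, 0 and 0 CPM and at 15.2, 29.1 and 0 CPM. The log2 difference of Cd8a against Cd4 T cells, with the mouse as a block, was 2.00 ± 0.43 (SE, edgeR, adjusted p = 0.000319), in a comparison that called 6.56% of genes and 1 of 4 members, and 2.00 ± 0.41 without cluster 7 (edgeR, adjusted p = 0.000142). With a minimum count of 10, or without HLA→B6 replicate 1 or 2, Cd160 did not pass the filter on low counts in that comparison and was not tested. Between the groups, the difference of Cd160 in the Cd8a class was −10.2 CPM within the linked and 34.0 CPM within the other libraries, so that its direction differed. Over both groups together, Trdc-positive T cells had a UMI of Cd160 in 10.6% of 227 cells, against 4.47% of T cells without Trdc. By group, Trdc-positive T cells had 34.0 to 58.1 CPM (mean 46.9) in 3 B6→B6 mice with at least 10 such cells. The 3 HLA→B6 mice had 67.2 to 127 CPM (mean 100). These ranges, from 9 and 24 UMIs, did not overlap, whereas those of T cells without Trdc did (11.0 to 30.8 and 16.2 to 33.8 CPM). The difference was not tested, and the share of all genes without overlap in this subset was not computed.

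For the other 3 members of that comparison, Cd8a and Cd4 T cells did not differ past the threshold: the log2 differences were −0.07 for Pdcd1, −0.03 for Tox and 0.28 for Lag3 (edgeR, adjusted p from 0.59 to 0.98). The effect of the group was not shown to differ between the 2 classes either. The interaction terms were −0.85 ± 0.53 for Pdcd1, 0.76 ± 0.50 for Lag3 and −2.63 ± 1.21 for Cd160 on the log2 scale (edgeR, adjusted p = 0.999 for each), with 0 of 7 members and 0.212% of genes called.

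Tox, 1643 UMIs in all, was highest in T cells in both groups. In Cd4 T cells it was at 58.1, 57.4, 99.3, 132 and 20.4 CPM in B6→B6 and at 355, 183 and 296 CPM in HLA→B6 mice. The groups did not overlap, and the highest B6→B6 mouse was replicate 4, which fell to 58.2 CPM without cluster 7. The means were 73.5 ± 43.1 CPM (SD, n = 5) and 278 ± 87.3 CPM (SD, n = 3), with a log2 fold change of 1.65 ± 0.35 (SE, edgeR, adjusted p = 0.0356), and 2.05 ± 0.32 without cluster 7 (edgeR, adjusted p = 0.00033). With all cells, the call was lost when B6→B6 replicate 1, 2 or 5 or HLA→B6 replicate 1 or 3 was left out, with adjusted p values up to 0.528 (edgeR), and with a minimum count of 10 (edgeR, adjusted p = 0.0536) or DESeq2 (adjusted p = 0.0519).

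Tox in Cd8a T cells was at 75.1, 54.7, 78.2, 118 and 51.6 CPM in B6→B6 and at 200, 338 and 71.1 CPM in HLA→B6 mice. HLA→B6 replicate 3 was among the B6→B6 mice. The log2 fold change of 1.32 ± 0.34 missed the threshold (edgeR, adjusted p = 0.078) and passed it without cluster 7, where it was 1.65 ± 0.30 (edgeR, adjusted p = 0.00196). The means of Tox differed by 269 CPM within the linked and 50.5 CPM within the other libraries in this class, and by 111 and 249 CPM in Cd4 T cells.

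Over all T cells, the 5 B6→B6 mice had 68.4, 68.1, 68.3, 130 and 64.4 CPM of Tox and the HLA→B6 mice 203, 230 and 104 CPM. Replicate 4 moved from 130 to 68.0 CPM without cluster 7, after which the B6→B6 mice stood at 67.4 ± 1.70 CPM (SD, n = 5), all below the lowest HLA→B6 mouse, and the log2 fold change went from 1.10 (edgeR, adjusted p = 0.235) to 1.34 (edgeR, adjusted p = 0.00781). In T cells with neither Cd4 nor Cd8a the groups overlapped with all cells (log2 fold change 0.35 ± 0.29, edgeR, adjusted p = 1.00). Without cluster 7 they did not overlap there (57.6 to 82.0 CPM in B6→B6 and 84.4 to 156 CPM in HLA→B6 mice), and the log2 fold change of 0.67 ± 0.22 was not past the threshold (edgeR, adjusted p = 0.466). NK cells, the next highest named lymphocyte class, had 9.66 to 50.8 CPM in B6→B6 and 35.9 to 63.4 CPM in HLA→B6 mice.

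**Figure D2:**
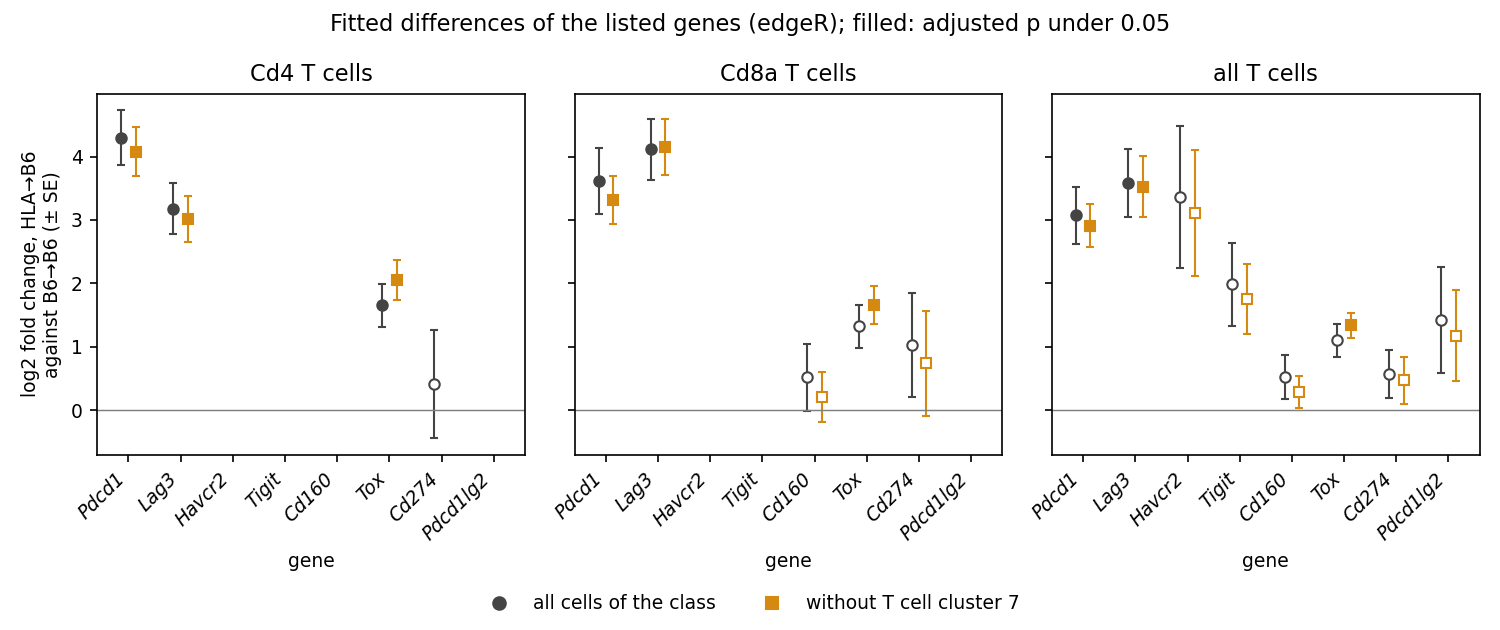
Fitted log2 fold change (vertical axis, ± SE) of HLA→B6 against B6→B6 for each member that passed the filter on low counts (horizontal axis) in Cd4 T cells, Cd8a T cells and all T cells, with all cells (grey circles) and without T cell cluster 7 (orange squares). Filled marks have an adjusted p under 0.05 and are seen for Pdcd1 and Lag3 in all 3 panels with either set of cells, and for Tox in Cd4 T cells with either set but in the other 2 panels only without cluster 7.

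The 2 groups' T cells were also compared for markers of other cell types, without cluster 7. Over all T cells, summed markers of B cells reached 8.05 to 24.9 CPM in B6→B6 and 11.5 to 44.5 CPM in HLA→B6 mice, those of plasma cells 16.1 to 75.9 and 67.6 to 135 CPM, those of neutrophils 0 to 7.45 and 0 to 266 CPM, those of red cells 0 to 142 and 3.17 to 755 CPM, those of alveolar macrophages 0 to 4.34 and 0 to 1.58 CPM, and those of dendritic cells 305 to 456 and 160 to 271 CPM. Of these lists and those of NK cells, monocytes, mast cells, endothelial cells, fibroblasts and epithelial cells, only that of dendritic cells did not overlap between the groups over all T cells, and it holds Ccr7, which naive T cells also express. The only marker at 0 in all T cells was Ms4a2 of mast cells. In the Cd8a class alone, plasma cell markers did not overlap either, at 0 to 47.3 CPM in B6→B6 and 52.1 to 82.7 CPM in HLA→B6 mice, nor did those of dendritic cells, at 375 to 526 and 133 to 206 CPM, whereas in the Cd4 class those of dendritic cells overlapped (253 to 388 and 146 to 383 CPM). Igkc, an immunoglobulin light chain named after its values were seen, was called higher in HLA→B6 T cells without cluster 7 (edgeR, adjusted p = 0.0157) and not with all cells (edgeR, adjusted p = 0.0965). The part of these transcripts in the levels of Pdcd1, Lag3 and Tox was not tested. T cell markers themselves summed to 5380 to 6189 CPM in B6→B6 and to 6272 to 7629 CPM in HLA→B6 mice.

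Within HLA→B6 T cells, Lag3 and Tox were found more often in the cells that had Pdcd1. Without cluster 7, 684 HLA→B6 T cells had a UMI of Pdcd1 and 1824 did not, with median depths of 1596 and 1786 UMIs, and cells with Pdcd1 thus were not the deeper ones. Lag3 was found in 52.6% of the former and 10.6% of the latter, and Tox in 50% and 14.5%. Each mouse showed the same order: for Lag3 the shares with and without Pdcd1 were 36.9% and 10.6% in HLA→B6 replicate 1, 67.6% and 10.9% in replicate 2, and 38.2% and 9.14% in replicate 3. Havcr2 was found in 8.33% of cells with and 0.713% of cells without Pdcd1, and Tigit in 7.46% and 1.21%. Cd160 was the exception, at 5.26% and 4.93%.

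The pattern was seen in both T cell classes of HLA→B6 grafts. Lag3 was found in 65.7% of Cd8a T cells with Pdcd1 and 19.5% of those without, and in 43.4% and 13.2% of Cd4 T cells. Tox was found in 56.6% and 18% of Cd8a T cells and in 53.7% and 16.4% of Cd4 T cells. In B6→B6 grafts only 81 T cells had Pdcd1, and 21% of these had Lag3 against 1.70% of the other 1528, while Tox was found in 28.4% and 11.1%. Cells are not replicates, and these shares carry no test.

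**Figure D3:**
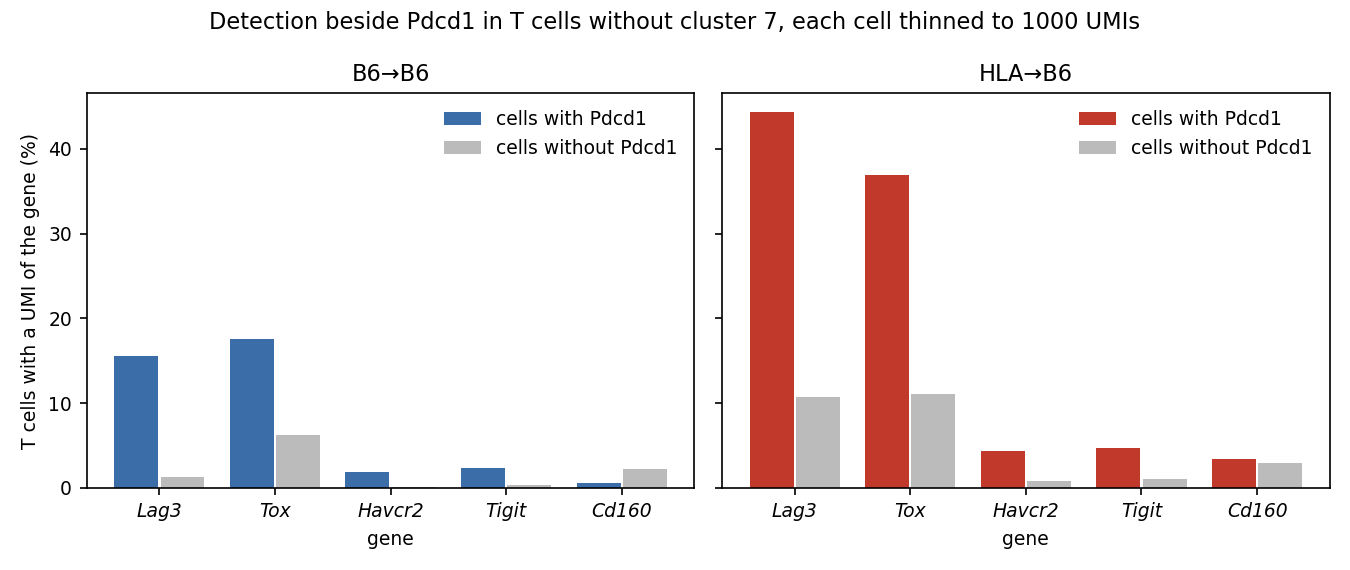
Share of T cells (vertical axis, %) with a UMI of Lag3, Tox, Havcr2, Tigit or Cd160 among cells with Pdcd1 (coloured bars) and without it (grey bars), in B6→B6 and HLA→B6 grafts, each cell thinned to 1000 UMIs and cluster 7 left out. In HLA→B6 grafts the thinned share for Lag3 was 44.3% beside Pdcd1 and 10.7% without it, and that for Tox 36.9% and 11.1%.

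Counting the 5 receptors per cell after thinning, again without cluster 7, T cells with at least 2 of them made up 0.579%, 0.563%, 1.5%, 0.131% and 0.104% of T cells in B6→B6 mice and 8.24%, 15.5% and 3.20% in HLA→B6 mice. The groups did not overlap. In Cd8a T cells the HLA→B6 shares were 9.39%, 26.3% and 5.12%, against 0.180% to 2.78% in B6→B6 mice, and in Cd4 T cells 13.1%, 16.3% and 3.68%, against 0% to 1.51%. In these classes HLA→B6 replicate 2 was highest, whereas in T cells with neither transcript replicate 1 was, with 6.00%, 4.36% and 1.39% in the 3 mice.

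Among the labelled cell types, Cd274, with 1519 UMIs in all, had its highest mean level in alveolar macrophages, which held 914 of them. These cells had 92.3, 102, 65.1, 101 and 123 CPM in B6→B6 and 76.7, 109 and 69.9 CPM in HLA→B6 mice. The groups overlapped almost completely, at 96.7 ± 21 CPM (SD, n = 5) and 85.1 ± 20.7 CPM (SD, n = 3), with a log2 fold change of 0.08 ± 0.24 (SE, edgeR, adjusted p = 0.888). A UMI was found in 24.1% of alveolar macrophages. In B6→B6 grafts no other type with at least 10 cells in a mouse reached their lowest value, and in HLA→B6 grafts only the cells labelled leukocyte overlapped with them.

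Monocytes had Cd274 at 45.9, 31.2, 16.8, 19 and 17.5 CPM in B6→B6 and at 34.3, 58.5 and 40.5 CPM in HLA→B6 mice. The ranges overlapped, and the log2 fold change of 0.84 ± 0.36 did not pass (edgeR, adjusted p = 0.972), with 0 of 2 members and 0.064% of genes called. In myeloid cells most of the ligand was in cells with Ccr7, a marker of migrating dendritic cells chosen after the values were seen. The 128 Ccr7-positive myeloid cells held 48 of the 71 UMIs, at 155 CPM in B6→B6 replicate 4 and 65.4 and 103 CPM in the HLA→B6 mice that had at least 10 such cells, whereas myeloid cells without Ccr7 had 0 to 20.8 CPM in any mouse.

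Structural cells of the graft had Cd274 at 14.7, 11.6, 20.1, 5.79 and 2.72 CPM in B6→B6 and at 18.4, 55.5 and 3.54 CPM in HLA→B6 mice. HLA→B6 replicate 2 was far above the rest, which overlapped, and the log2 fold change of 1.16 ± 0.52 did not pass (edgeR, adjusted p = 0.648), with 0 of 4 members and 0.56% of genes called. Within the structural cells, cluster 0 of the authors' clustering, looked at after the values were seen, had 0, 0, 10.9, 12.6 and 0 CPM in B6→B6 and 27.9, 69.3 and 19.7 CPM in HLA→B6 mice, with 76 UMIs in 2364 cells. These groups did not overlap, but this was not tested. The share of all genes without overlap in this cluster was not computed. Lymphocytes had little Cd274, with T cells at 6.54 to 16.3 CPM in B6→B6 and 12.7 to 19.1 CPM in HLA→B6 mice, and B cells at 10.3 to 21 CPM and 6.85 to 22.6 CPM, and B cells had 0 of 2 members called where 0.091% of genes were.

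Pdcd1lg2 was rarer, with 300 UMIs, of which 91 were in alveolar macrophages, 66 in B cells, 57 in T cells and 47 in myeloid cells. In alveolar macrophages it was at 9.89, 4.18, 10.2, 15.3 and 12.6 CPM in B6→B6 and at 4.97, 9.53 and 0 CPM in HLA→B6 mice, and in B cells at 0, 21.6, 20, 10.5 and 12.2 CPM and at 16.4, 18.7 and 14.4 CPM. The groups overlapped in both types. B cell subcluster 1 of the authors' clustering had 23 of the UMIs in 210 cells, at 71.8 and 57.6 CPM in B6→B6 replicates 2 and 3 and at 16 and 28 CPM in the 2 HLA→B6 mice with at least 10 such cells. Among myeloid cells, the 128 with Ccr7 held 37 of the 47 UMIs, at 25.8 CPM in B6→B6 replicate 4 and 29.7 and 165 CPM in HLA→B6 mice. The fitted log2 fold changes were −0.51 ± 0.54 in alveolar macrophages, 0.13 ± 0.44 in B cells and 1.71 ± 0.71 in myeloid cells (edgeR, adjusted p = 0.618, 1.00 and 0.806).

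**Figure D4:**
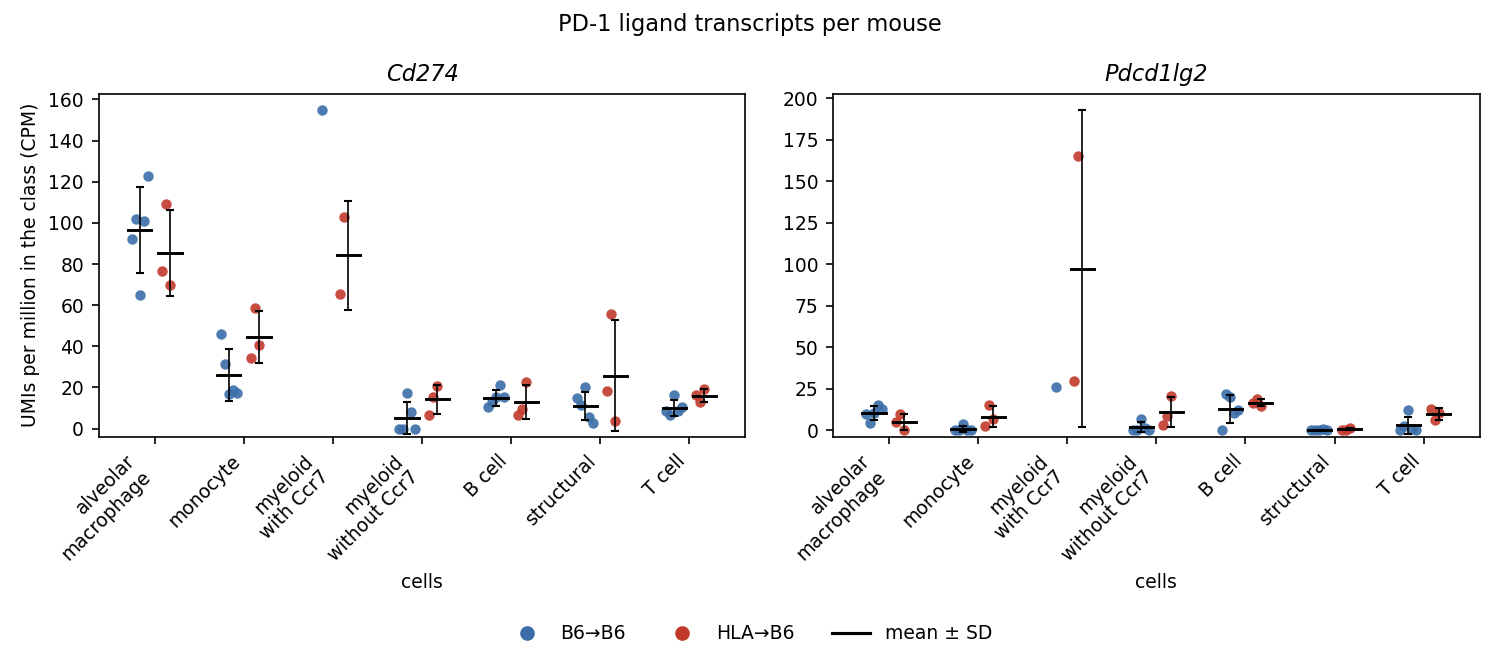
Levels of Cd274 and Pdcd1lg2 (CPM, vertical axes) per mouse in selected cells (horizontal axis), for B6→B6 (blue) and HLA→B6 (red), with black lines for the mean ± SD and mice with under 10 cells of a class left out. Alveolar macrophages (65.1 to 123 CPM) and Ccr7-positive myeloid cells (65.4 to 155 CPM) stand highest for Cd274.

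**Figure D5:**
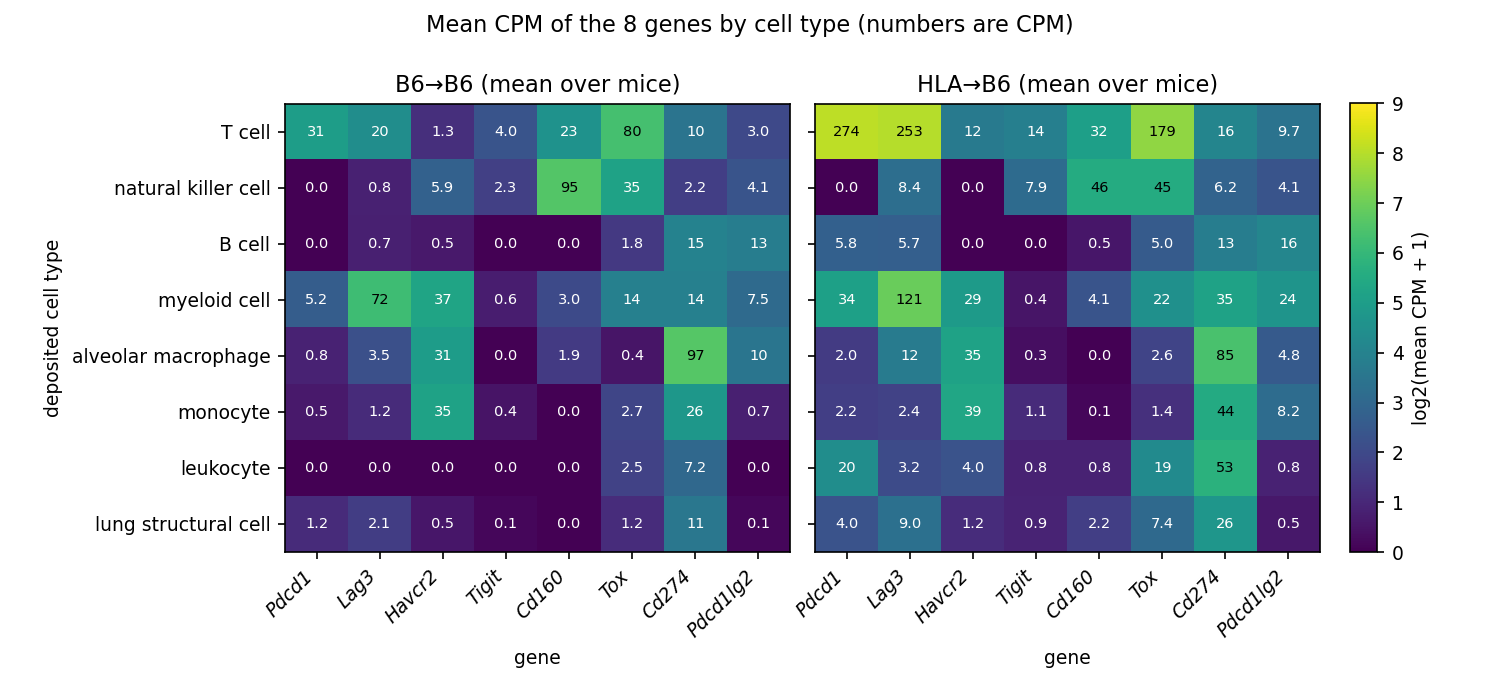
Mean level over mice (CPM, printed in each field and coloured as log2(mean CPM + 1)) of the 8 genes in each deposited cell type with enough cells, for B6→B6 (left) and HLA→B6 (right). T cells lead for Pdcd1 and Tox in both groups, NK cells for Cd160 and alveolar macrophages for Cd274, while Lag3 is highest in myeloid cells in B6→B6 grafts (72.0 CPM) and in T cells in HLA→B6 grafts (253 CPM).

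Pairs of member and class with too few UMIs for the fit were compared by an exact permutation test over mice (two-sided), in 42 pairs with any UMI. Both pairs that reached 0.0357, the smallest p that 5 against 3 mice allow, were at very low levels: Lag3 in B cells (0.741 against 5.67 CPM, 13 UMIs) and Pdcd1lg2 in Cd8a T cells (0 against 5.03 CPM, 8 UMIs). With Benjamini-Hochberg adjustment over the 42 pairs, both had an adjusted p of 0.428 in this exact permutation test. By the share of cells with a UMI after thinning, a further pair, Pdcd1lg2 in monocytes (0.0373% against 0.974% of cells), also reached 0.0357 (exact permutation test, adjusted p = 0.405), while its level (0.745 against 8.18 CPM) had an exact p of 0.0714.

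Other genes of the pathway were taken as lists, chosen with earlier results of these data known. In Cd8a T cells of HLA→B6 grafts, 4 of 14 cytotoxic and effector genes tested rose and none fell, with a median log2 fold change of 1.11 over the list against −0.01 over all genes tested. The largest rise of any listed gene was that of Ccl3, a chemokine of activated T cells (4.22, edgeR, adjusted p = 0.00198), and the other 3 of this list were Ccl4, Cxcr6 and Ifng. Of 7 other inhibitory receptors tested, Cd200r1 rose (3.49, edgeR, adjusted p = 0.0143), and of 18 interferon-γ response genes Irf8 rose (3.23, edgeR, adjusted p = 0.0294). Of 10 genes of naive and central memory T cells, Ccr7 fell by 1.23 on the log2 scale (edgeR, adjusted p = 0.037), and the median of the list was −0.95. One gene each rose among 7 ligands of inhibitory receptors (Fgl2), 13 transcription factors linked to exhaustion (Id2) and 15 genes of T cell receptor and PD-1 signalling (Cd3g), and none passed among 8 costimulatory receptors, 5 proliferation genes and 6 regulatory T cell genes.

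Without cluster 7, the same lists gave more calls in Cd8a T cells, as did the whole table, where the share of genes called went from 0.81% to 1.79% (56 to 121 genes). Of 14 effector genes 7 rose, led by Ccl3 (3.93), and Gzma, a granzyme, fell by 3.51, while 6 of 10 naive and central memory genes fell, Ccr7 by 1.51. Cd200r1 (3.23) and Irf8 (3.03) rose there too, and Ifngr2, a subunit of the interferon-γ receptor, fell by 2.30 (edgeR, adjusted p = 0.0449).

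Over the Cd4 T cells with cluster 7 kept, 2 of 10 costimulatory receptors rose, Tnfrsf4 (OX40, log2 fold change 2.08, edgeR, adjusted p = 0.000111) and Tnfrsf18 (GITR, 1.41, edgeR, adjusted p = 0.0322), the latter also being the 1 of 7 regulatory T cell genes that rose, while 0 of 8 effector genes and 0 of 10 naive genes passed (medians 0.56 and −0.69). With the cluster left out, Tnfrsf4 (2.00) and Tnfrsf18 (1.37) still rose, as did Iigp1, an interferon-inducible GTPase and 1 of 16 interferon-γ response genes (2.42, edgeR, adjusted p = 0.0422). Klf2, a factor of resting T cells and 1 of 10 naive genes, then fell by 1.21 (edgeR, adjusted p = 0.0137), and Klrg1, 1 of 7 other inhibitory receptors, was called lower (edgeR, adjusted p = 0.00848). Over all T cells no listed gene other than the members passed with cluster 7 kept, and without it Ccl3 (3.32), Ccl4 (2.60), Tnfrsf4 (1.60) and Nkg7 rose and Klf2 fell by 1.00.

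The genes most alike to each member were found by Pearson's r of log2(CPM + 10) over 64 sums, each of the cells of 1 deposited type in 1 mouse with at least 20 cells. These points share mice and libraries, and r is a description with no test. Pdcd1 was most like Cxcr6 (r = 0.854), Nrn1 (0.836) and Icos (0.814), and Lag3 most like Tbc1d4 (0.823), Tnfrsf4 (0.744) and Asb2 (0.734). Genes much like Tox were Zap70 (0.893) and Cd96 (0.881), and Cd160 was most like Xcl1 (0.968), Klrc1 (0.952) and Ctsw (0.950). Havcr2 was most like Naaa (0.850), Tifab (0.839) and Ms4a6d (0.836), and Cd274 most like Renbp (0.768), Slc6a6 (0.765) and Lipa (0.764). The likeness was lower for the rare members, with Serp2 (0.722), Cysltr2 (0.698) and Gm29243 (0.685) for Tigit and Kynu (0.654), Pgls (0.614) and Gm42031 (0.612) for Pdcd1lg2.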

How the data were processed

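The deposited table held UMI counts per gene and cell, which the authors made with Cell Ranger on mm10 (version not given in the sources used here), keeping barcodes with at least 200 UMIs and genes in at least 3 cells. They also describe removal of free RNA with SoupX, and whether the counts are from before or after that step is not given. Cell types, T cell clusters and subclusters are the authors' own. The 8 members, the lists of other genes and the classes were chosen with earlier results of these data known.

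Counts were summed per mouse and class (at least 10 cells) and fitted with edgeR 4.0.16 (TMM, filter of 3 counts and 15 in total, quasi-likelihood test) with the group as the only term, in R 4.3.3, with p values adjusted by Benjamini-Hochberg over all genes tested. The Cd8a against Cd4 comparison and the interaction had the mouse as a block. Members under the filter were compared by exact permutation tests in scipy 1.17.1. On simulated counts with 200 genes changed 4-fold, the step recovered 87% in T cells (9730 genes), 98% in Cd4 T cells (5505 genes) and 90% in Cd8a T cells (6912 genes). It made 2, 10 and 3 false calls there. The changed genes were drawn only from those with more UMIs in the class, so the recovery does not cover members with few UMIs. Scrublet, run through scanpy 1.11.5, marked 258 doublets (1.24% of 20778 cells), 19 of them T cells, and these were kept in the values given. The alternatives were DESeq2 1.42.0, a minimum count of 10, no filter, cells with at least 500 UMIs, doublets or 793 cells with shared barcodes left out, a block for replicate numbers or linked libraries, cells with both Cd4 and Cd8a put in both classes, and each mouse left out. Shares and limits from 0 counts (3 counts of the total) cover counting error only.

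Genes named are the 8 members, in each T cell fit the 3 largest rises and falls of listed genes past the threshold, and the 3 genes most alike to each member, of which 1 is not reported here. Other names were chosen after their values were seen.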

Additional observations from a re-analysis of the deposited data

Results flagged for a closer look

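In 44 groups of 5 mice that were checked for a mouse far from the other 4, chance alone would mark about 1 in 20. B6→B6 replicate 3 stood out for Lag3 in T cells with neither Cd4 nor Cd8a, at 54.0 CPM against 0 to 15.6 CPM in the other B6→B6 mice, with or without cluster 7, and in Cd8a T cells without cluster 7, at 39.1 CPM. B6→B6 replicate 4 stood out for Tox, at 130 CPM in all T cells and 148 CPM in T cells with neither, and in both it returned to the range of the other mice without cluster 7 (68.0 and 78.1 CPM). Without that cluster, B6→B6 replicate 5 was marked for Tox in all T cells at 64.4 CPM, where the other 4 mice lay between 68.0 and 68.4 CPM.

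T cells with UMIs of both Cd4 and Cd8a entered no comparison. In HLA→B6 grafts, 9 such cells, at a median of 4229 UMIs, held 37 UMIs of Pdcd1, in 7 of the 9 cells, and 19 of Lag3. The 196 such cells of B6→B6 replicate 4, at a median of 861 UMIs, held 0 of Pdcd1. Most of these belonged to T cell cluster 7, of which the HLA→B6 mice had no cell. Whether the 9 cells were doublets of a Cd4 and a Cd8a T cell was not tested.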

How the results depend on the processing

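Pdcd1 and Lag3 kept their rise past the threshold in all 18 alternatives in Cd4 and in Cd8a T cells (log2 fold changes of 3.56 to 4.75 and 2.63 to 4.36 for Pdcd1, and 2.81 to 3.71 and 3.13 to 4.49 for Lag3). In all T cells each passed in 12 of 17. Tox passed in 11 of 18 in Cd4 T cells, 5 of 18 in Cd8a T cells and 4 of 17 in all T cells. Over single members, 259 values kept direction and side of the threshold, 9 passed it, 17 lost it and 2 turned, neither of them called: Cd274 in Cd4 T cells (−0.02 without B6→B6 replicate 2, and −0.02 to 0.90 over the mice left out) and Cd160 in Cd8a T cells (−0.42 with the replicate block). The cause of these changes was not tested.

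Counts of genes called moved more. In all T cells 4 genes were called, against 33 with DESeq2, 61 with no filter, 46 with the replicate block, 41 with the linked block and 32 without cluster 7, and 0 to 27 with a mouse left out, with 0 to 3 members. In Cd4 T cells 13 were called, against 5 at a minimum count of 10, 68 with no filter, 35 with the replicate block, 30 with the linked block, 8 with cells of both in both classes, and 4 to 24 with a mouse left out. In Cd8a T cells 56 were called, against 37 with DESeq2, 25 at a minimum count of 10, 246 with no filter (4 members), 120 with the linked block, 121 without cluster 7, and 9 to 85 with a mouse left out. In the other classes, where no member was called, 1 was with DESeq2, a minimum count of 10, 500 UMIs or shared barcodes left out, 4 with no filter or the linked block, 2 with the replicate block or without cluster 7, and 0 to 2 with a mouse left out, each of them Pdcd1 or Lag3. Of the Cd8a against Cd4 comparison, Cd160 did not pass the filter at a minimum count of 10, which left 0 calls, and 0 to 1 member was called with a mouse left out. Mice with the same replicate number in the 2 groups did not deviate together (r = 0.031, 0.150 and −0.178), so the replicate block pairs them by number only. Replicate numbers are those of the sample titles. The cell names number the HLA→B6 mice otherwise, so the pairs in that block rest on this choice. Exact tests could not be repeated with a mouse left out, since 4 against 3 mice reach at best 0.0571 and 5 against 2 at best 0.0952. Tigit, Pdcd1lg2 and T cell Havcr2 rest on few UMIs.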
